A study of Drosophila melanogaster with 12 samples.

Results

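The comparison of bam mutant testes (SG-bam) with dissected spermatocytes (SC) of Drosophila melanogaster lists 638 genes, 1 row per gene, each with a stretch of RNA past a more proximal 3′ end that is called an extension here. All rows of that table were taken, and no gene was chosen by its values. The 4 comparisons of the series together list 1457 gene symbols. Of the 638 symbols, 176 are in this mutant table alone, and 462 are also in the table for tut mutants (SG-tut), for bgcn mutants (SG-bgcn) or in both.

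Bam is a cytoplasmic protein that works with Bgcn and Tut to repress target messenger RNAs in dividing spermatogonia. Male germ cells that lack it keep dividing as spermatogonia and do not enter the spermatocyte programme, in which cells grow, prepare for meiosis and switch on a large set of testis genes. A gene with more than 1 polyadenylation site can make messenger RNAs with short or long 3′ ends, and the longer end can carry extra sites for RNA-binding proteins and microRNAs. The question of the comparison, as the table's columns state it, was which genes differ between the groups in the part of their 3′ reads that lies in the long form.

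SG-bam holds 2 libraries from whole testes of bamBG/bamΔ86 flies, in which, per the labels, the germ cells are mainly arrested at mitosis. Being whole organs, these testes also hold the somatic cells of the testis. SC holds 3 libraries of wild-type meiotic germ cells that were laser dissected. RNA of SG-bam was taken up in Trizol, enriched with Dynabeads and prepared with the Illumina mRNA-Seq kit, while SC went through a low-input SMARTer cDNA kit with PCR and then Nextera XT. Genotype, dissection and kit change together, so their parts in any difference below cannot be told apart, and fewer cells of a type cannot be told apart from less RNA per cell. The tut mutants (tut3) and the bgcn mutants (bgcn20093/bgcnQS2) were prepared as SG-bam, with 2 libraries each, and dissected wild-type spermatogonia (SG, 3 libraries) as SC.

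All levels and shares are the authors' averages per group, without replicate error, and depth per library is unknown. Their unit is unknown, so levels are set side by side within a gene. The extension share divides the level of the extension by that of its gene, after 1e-05 is added to both, is capped at 100% and is given in percent. Genes with an authors' FDR up to 0.05 count as called, on the side where the share is higher. Nothing used here says if that FDR tests the extension level or the share, so it is not read as a test of the share. The listed rows were selected: all 638 have an authors' P under 0.05, a gap of over 2 times in the extension level, and an extension and share that lean to the same group. The P and FDR columns imply 6142 tests, of which the listed genes are 10.4%.

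Of the defining markers fixed for each cell type, only a few are listed at all, so the labels could be checked little. None of 5 germ cell markers and none of 4 hub markers is listed, nor are bam, bgcn and tut, so the mutated gene itself could not be checked. The gene level of aly, a regulator of the spermatocyte programme, was 23.4 in SG-bam, against 72.7 in SC. That of fzo, the mitofusin of spermatids, was 1.49 in SG-bam, against 244.8 in SC. Listed markers of cells outside the germ line had the higher gene level in SG-bam. Tm1, a tropomyosin found in muscle, had 157.9 in SG-bam, against 18.2 in SC. Acp95EF, which the male accessory gland secretes, had 673.1 in SG-bam, against 349.3 in SC, and that SC level makes it a weak check. The somatic cyst cell marker zfh1, listed but not called, had a log2 fold of the gene level of 1.89 in the authors' deposited table.

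Most listed extensions made up a larger part of their gene's signal in bam mutant testes than in spermatocytes. The 610 called genes are 95.6% of the rows. Of all rows, 469 genes (73.5%) were called with the higher share in SG-bam, and 141 (22.1%) with the higher share in SC. The 2 sides were not listed over the same range of folds. With levels above 0, log2 folds of the extension level in the authors' deposited table start at 1.01 on the SG-bam side (CG34002). On the SC side they start only at -2.60. The split between the sides may thus partly reflect the listing, which was not tested. For the 469 genes the median share was 15.8% in SG-bam, against 0.908% in SC, and the median extension level was 3.39 in SG-bam, against 0.135 in SC. Their gene level had a median of 31.9 in SG-bam, against 17.2 in SC. It was higher in SG-bam for 314 of them and lower for 155. A higher share in SG-bam means that the extension fold lies above the gene fold, so that order follows from the sorting by share. The other 141 genes look different: their median share was 0.133% in SG-bam, against 3.33% in SC, and their median gene level was 2.46 in SG-bam, against 65.6 in SC. For 112 of these 141 the gene level was lower in SG-bam, for 79 by more than 8 times. In 52 of them the extension is listed at 0 in SG-bam, and in those the median gene level was 0.605 in SG-bam, against 151.9 in SC. No direction is read from a single gene listed at 0, which can be a failed estimate.

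**Figure D1:**
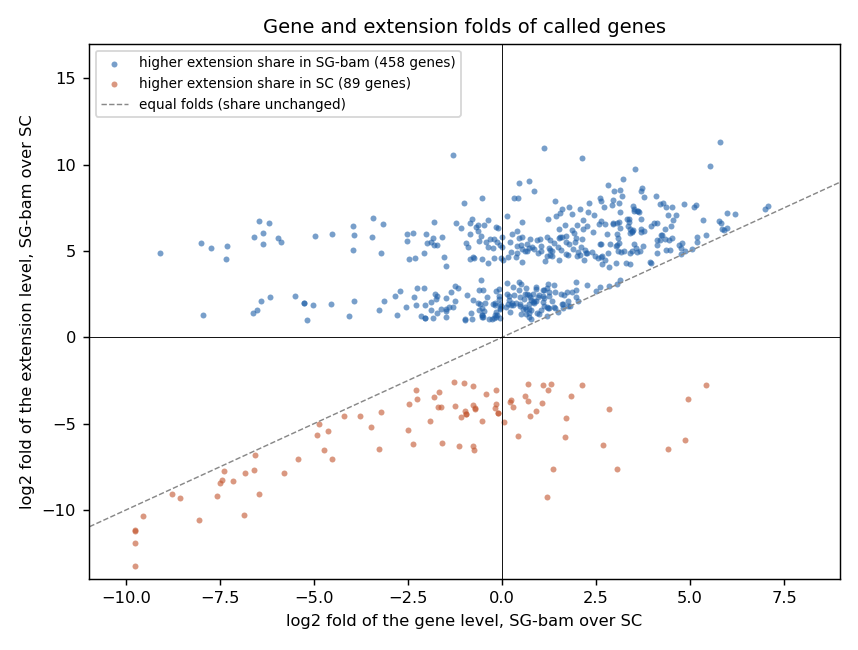
Log2 folds of SG-bam over SC of the gene level (horizontal axis) and of the extension level (vertical axis) for the 547 called genes with all levels above 0; each point is a gene, blue where the extension share was higher in SG-bam and red where it was higher in SC. The 458 blue points lie above the dashed line of equal folds, as their higher share requires, and spread to both sides of an unchanged gene level. Many of the 89 red points lie at low gene levels in SG-bam.

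The fold of the share holds the fold of the gene level as its divisor, so both are needed to read it. Among the 469 genes with the higher share in SG-bam, the gene level was more than 2 times higher in SG-bam for 232, within 2 times for 151 and more than 2 times lower for 86. In the authors' deposited table the median log2 fold of the share was 2.58 in the 232 genes, 2.63 in the 151 genes and 6.82 in the 86 genes. The share was at least 10 times higher in 224 of the 469 genes. At the other end, 22 called genes had shares within 0.32 of each other on the log2 scale. Notch, the receptor of cell-to-cell signalling listed as N, is an example: its share was 31.5% in SG-bam, against 30.7% in SC, while its extension level was 4.36 in SG-bam, against 0.157 in SC, and its gene level 13.9 in SG-bam, against 0.51 in SC. Such a call shows a gene and its extension at a higher level, with a share that barely moved.

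Regulators of germline stem cells and spermatogonia had 7 called members, all 7 with the higher share in SG-bam; over all called genes that side holds 76.9%. The share of mei-P26, a TRIM-NHL protein that limits germ cell growth and division, was 20.9% in SG-bam, against 0.764% in SC. Its gene level was 40.4 in SG-bam, against 25.6 in SC, and its extension level 8.44 in SG-bam, against 0.196 in SC, so extension and gene moved by unlike amounts. The mei-P26 extension covers X:9172930-9176019 on the plus strand (dm6), 3090 bases that all lie in the annotated 3′ UTR. For stg, the Cdc25 phosphatase that triggers mitosis, the share was 46% in SG-bam, against 2.16% in SC, but the SC value rests on a gene level of 0.57, against 26.1 in SG-bam. The stg extension is short, 3R:29251793-29252142 on the minus strand, of whose 350 bases 317 are annotated as 3′ UTR and 33 lie past the annotated end.

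Tob, of a family of antiproliferative proteins that recruit deadenylases, had a share of 16% in SG-bam, against 0.408% in SC. Its gene level went the opposite way, 6.37 in SG-bam, against 106.7 in SC, and its extension level was 1.02 in SG-bam, against 0.436 in SC. A2bp1, the fly homologue of the Rbfox splicing factors, had the largest share fold of this list. Its share was 61.6% in SG-bam, against 0.00975% in SC, at a gene level of 14.6 in SG-bam, against 2320.35 in SC. On the log2 scale of the authors' deposited table the extension level of A2bp1 moved by 5.31 and its gene level by -7.32. The extension level of A2bp1 itself was 8.98 in SG-bam, against 0.226 in SC. Pumilio (pum), a repressor of translation, had a share of 31.7% in SG-bam, against 9.34% in SC, and Mad, the transcription factor of the BMP pathway that maintains stem cells, 2.56% in SG-bam, against 0.923% in SC. The share of how, a KH-domain RNA-binding protein, barely moved, with 21.3% in SG-bam, against 20.5% in SC.

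RNA-processing genes were among the calls in small numbers, and all were on the SG-bam side, which holds 76.9% of all called genes. Of the cleavage and polyadenylation machinery 3 members were called of 4 listed. Pcf11, a subunit of the cleavage complex, had a share of 25.6% in SG-bam, against 0.519% in SC, and a gene level of 43.8 in SG-bam, against 124.5 in SC. Its extension is 8610 bases long and lies inside the annotated gene. The share of su(f), a subunit of the cleavage stimulation factor, was 15.9% in SG-bam, against 2.41% in SC. That of Fip1, of the polyadenylation factor CPSF, was 0.738% in SG-bam, against 0.69% in SC.

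Splicing regulators had 4 called members. SRPK, the kinase of SR splicing factors, had a share of 24.6% in SG-bam, against 0.287% in SC, with a gene level of 103.1 in SG-bam, against 200.6 in SC. For mub, a KH-domain RNA-binding protein, the share was 31.3% in SG-bam, against 6.6% in SC. Its extension, at 3L:21924125-21927684 on the plus strand, holds 3560 bases, all in the annotated 3′ UTR. The mub gene level was 67.8 in SG-bam, against 2.88 in SC. Hrb87F, an hnRNP protein, had 0.514% in SG-bam, against 0.04% in SC. Both lists thus hold genes whose share moved while the gene level was lower in SG-bam, and genes where both were higher.

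Messenger RNA localisation and translation had 5 called members, all with the higher share in SG-bam, the side of 76.9% of all called genes. Imp, an RNA-binding protein that governs mRNA stability and transport, had an extension of 7420 bases wholly in the annotated 3′ UTR, which also touches the noncoding gene lncRNA:CR45204. Its share was 37.3% in SG-bam, against 0.889% in SC, and its gene level 91.0 in SG-bam, against 163.7 in SC. Caper had a share of 3.44% in SG-bam, against 0.181% in SC, but its extension touches an exon of milt, so reads of milt may count in it. BicD, the dynein adaptor that carries mRNA, had 7.3% in SG-bam, against 1.2% in SC, and eIF4G, the scaffold of translation initiation, 0.658% in SG-bam, against 0.0868% in SC. In small RNA pathways AGO3, an Argonaute of the piRNA pathway, had 9.98% in SG-bam, against 4.31% in SC. Tdrd3 had 20.3% in SG-bam, against 16.5% in SC, and its extension touches an exon of Helz.

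Genes of the spindle and the cell cycle had 7 called members, 6 with the higher share in SG-bam, stg among them, and 1 in SC. Klp3A, a midzone kinesin, had a share of 47.8% in SG-bam, against 0.326% in SC. Its gene level was 19.6 in SG-bam, against 25.3 in SC, and its extension level 9.37 in SG-bam, against 0.0826 in SC. All but 2 of the 220 bases of the Klp3A extension lie in the annotated 3′ UTR. Incenp, a chromosomal passenger protein, had 17.3% in SG-bam, against 0.339% in SC, over an extension of 200 bases inside the annotated 3′ UTR. The catalytic subunit of protein phosphatase 2A, mts, had 0.499% in SG-bam, against 0.0356% in SC.

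Other members of that list carry a limit. The share of mars, a mitotic spindle protein, was 90.8% in SG-bam, against 1.59% in SC, at gene levels of 20.6 in SG-bam, against 20.7 in SC, and its extension touches an exon of mip120. The centriole protein asl had an extension level of 151.3 in SG-bam, against 33.6 in SC, above its own gene level of 39.8 in SG-bam and close to that of 35 in SC, and the extension starts 3360 bases past the annotated gene. gammaTub37C, the maternal γ-tubulin, was the member on the SC side. Its extension level was 6.02 in SG-bam, against 153.5 in SC, and its gene level 6.86 in SG-bam, against 2.1 in SC. That extension touches an exon of CG46059.

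Chromatin and replication genes had 4 called members, all with the higher share in SG-bam, the side of 76.9% of all called genes. For trx, the Trithorax histone methyltransferase, the share was 76.7% in SG-bam, against 12.2% in SC. For esc, a subunit of Polycomb complex PRC2, it was 44.1% in SG-bam, against 4.95% in SC. CoRest, a corepressor, had 21.6% in SG-bam, against 8.41% in SC, over 6050 bases, and Su(var)2-10, a SUMO ligase of the PIAS family, 18.3% in SG-bam, against 8.59% in SC, with an extension that touches an exon of GstE13. Developmental transcription factors had 9 called members, 8 with the higher share in SG-bam. The AP-1 factors were both among them. Jra, the fly Jun, had 72.8% in SG-bam, against 0.374% in SC, with an extension that touches an exon of 14-3-3zeta, and kay, the fly Fos, had 11.4% in SG-bam, against 0.667% in SC.

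The share of ttk, a zinc-finger repressor, was 50.03% in SG-bam, against 6.45% in SC, that of Mef2, a muscle transcription factor, 71.2% in SG-bam, against 9.21% in SC, and that of lola, a BTB zinc-finger factor, 6.63% in SG-bam, against 0.556% in SC. In the opposite direction the share of cwo, a repressor of the circadian clock, was 0.44% in SG-bam, against 55.7% in SC. The SC value rests on a cwo gene level of 1.78, against 12.8 in SG-bam. The extension level of cwo was 0.0562 in SG-bam, against 0.992 in SC.

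Cytosolic ribosomal proteins had 9 called members, all with the higher share in SG-bam, the side of 76.9% of all called genes. The shares were very small in 7 of the 9. RpL10 had 0.0648% in SG-bam, against 0.00377% in SC, RpL37a 0.0466% in SG-bam, against 0.00266% in SC, and RpS7 0.0623% in SG-bam, against 0.00233% in SC. The gene level was higher in SG-bam for 9 of 9, beside 56.2% of all called genes, and for RpS7 it was 6044 in SG-bam, against 802.7 in SC. RpS3 had the largest share fold of the 9, with 0.396% in SG-bam, against 0.00519% in SC, and an extension level of 10.1 in SG-bam, against 0.0115 in SC. The RpS3 extension touches no exon of another gene. RpS14a had 11.7% in SG-bam, against 0.672% in SC, but its extension lies over RpS14b, a near-identical copy, so this value is uncertain.

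Mitochondrial ribosomal proteins had 7 called members, 5 with the higher share in SG-bam and 2 in SC. The gene level was lower in SG-bam for 5 of the 7 and higher for 2, but within 2 times for all 7. Its log2 folds ran from -0.757 for mRpL52 to 0.362 for mRpL17 in the authors' deposited table. Over all called genes 56.2% had the higher gene level in SG-bam, so the count of 5 sets no direction for this list. mRpS5 had a share of 5.43% in SG-bam, against 0.816% in SC. mRpL50 stood at 100% in SG-bam, against 0.468% in SC, with an extension level of 277.7 in SG-bam, against 1.02 in SC, and its extension touches an exon of RpL18. The pair on the SC side was mRpL23, with 0.0902% in SG-bam, against 1.35% in SC, and mRpS28, with 0.213% in SG-bam, against 2.77% in SC. Their gene levels were close, 140.6 in SG-bam, against 118.5 in SC, for mRpL23, and 91.7 in SG-bam, against 103.3 in SC, for mRpS28. Genes of ubiquitin, SUMO and the proteasome had 4 called members with the higher share in SG-bam, among them puf, a deubiquitinase, with 98.8% in SG-bam, against 4.16% in SC. The fifth, Rpn12R, is a testis form of a proteasome subunit, with 67.8% in SG-bam, against 100% in SC, at gene levels of 0.07 in SG-bam and 1.73 in SC.

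Kinases, phosphatases and calcium signalling had 8 called members, all with the higher share in SG-bam, the side of 76.9% of all called genes. Of these shares 4, those of CanA-14F, Mbs, flw and sgg, moved by less than 2 times. The share of wdb, a regulatory subunit of protein phosphatase 2A, was 37.8% in SG-bam, against 6.55% in SC, and its gene level 70.5 in SG-bam, against 4.09 in SC. That of gish, a casein kinase, was 10.6% in SG-bam, against 0.251% in SC, at a gene level of 97.1 in SG-bam, against 636.5 in SC. Axon guidance and adhesion genes had 10 called members, 9 with the higher share in SG-bam. PlexA, a semaphorin receptor, had 7.44% in SG-bam, against 0.481% in SC, and Ephrin, the ligand of Eph, 13.4% in SG-bam, against 0.634% in SC. Mical, an enzyme that oxidises actin, had 20.9% in SG-bam, against 0.00221% in SC, at a gene level of 21.1 in SG-bam, against 1858 in SC. On the SC side stood robo1, the Slit receptor, with 1.0% in SG-bam, against 37.7% in SC.

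Membrane traffic and cytoskeleton had 12 called members, 10 with the higher share in SG-bam. WASp, an activator of actin branching, had 33.9% in SG-bam, against 0.353% in SC, and Arp2, a subunit of the complex it activates, 2.94% in SG-bam, against 0.0444% in SC. The WASp extension starts 4390 bases past the annotated gene. Rab39, a small GTPase of vesicle traffic, had 24% in SG-bam, against 0.212% in SC. The exocyst subunit Sec10 had 7.9% in SG-bam, against 0.2% in SC. Arp1, the actin-related protein of dynactin, had one of the largest share folds on the SC side, 0.0192% in SG-bam, against 27.2% in SC. The Arp1 extension level was 0.0297 in SG-bam, against 18.5 in SC, and an SG-bam level so close to 0 leaves the size of that fold uncertain. The 220 bases of the Arp1 extension touch an exon of CG14391 on the opposite strand. The labels do not say if the counting used strand.

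Of the symbols fixed for the spermatocyte and spermatid lists, few are in the table, 1 of 24 and 3 of 47. These lists do not cover all genes of that programme. Among all listed genes, the gene level was more than 8 times lower in SG-bam for 120 and more than 8 times higher for 116. How many of these belong to the programme was not tested. The share of aly was 8.11% in SG-bam, against 0.849% in SC. For fzo it was 100% in SG-bam, against 0.132% in SC, with an extension level of 7.42 in SG-bam, against 0.322 in SC, above the fzo gene level of 1.49 in SG-bam. The spermatid proteins fan and Mst84Dd were on the SC side. The fan share was 1.12% in SG-bam, against 1.26% in SC, and its gene level 64.8 in SG-bam, against 1892 in SC. Mst84Dd had a share of 0.15% in SG-bam, against 0.255% in SC. No axoneme gene, germline marker or histone of the lists was called.

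Muscle and sheath genes had 3 called members, all with the higher share and the higher gene level in SG-bam. Over all called genes 76.9% had the higher share there and 56.2% the higher gene level. Tm1 had a share of 11% in SG-bam, against 2.21% in SC, Zasp66, a protein of the Z band, 44.7% in SG-bam, against 9.24% in SC, and Mef2 is given above. Acp95EF had 2.51% in SG-bam, against 0.166% in SC, and its extension touches exons of mask. The part of such cells in the other results was not tested. The hub and cyst cell list had 1 listed gene, zfh1, whose FDR of 0.0556 in the authors' deposited table missed the threshold.

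**Figure D2:**
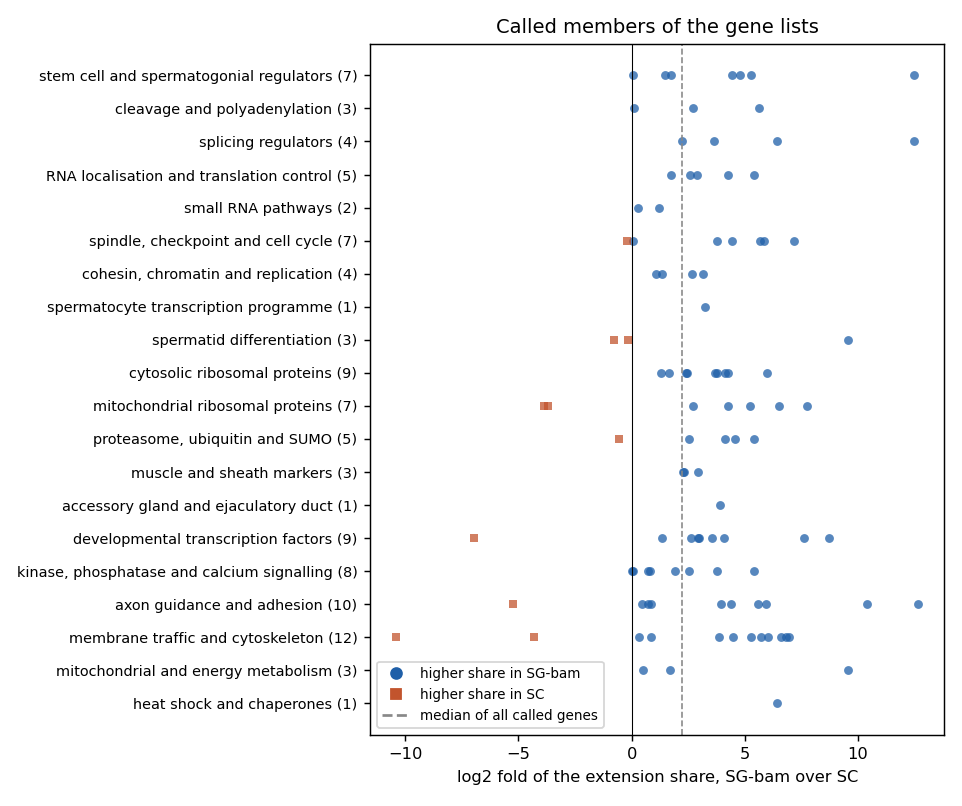
Log2 fold of the extension share, SG-bam over SC, for each called member of the 20 gene lists that have any (number of members in brackets; a gene in several lists is drawn in each); circles are higher in SG-bam and squares higher in SC. In 13 lists all members lie to the right of 0, and the dashed line is the median of all called genes, 2.21, of the authors' log2 folds.

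Across the 24 gene lists, 20 had a called member, together 98 genes. In 13 lists all called members had the higher share in SG-bam. As 76.9% of all called genes are on that side, and the lists were chosen with earlier results known, these counts are a description and set no list apart from the rest of the table.

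Extensions with the higher share in SC and a level above 0 in both groups include genes of many kinds. Their extension levels in SG-bam can be close to 0, as with 0.0242 for Amy-p, which leaves the size of such folds uncertain. Amy-p, a digestive amylase, had 0.0314% in SG-bam, against 55.6% in SC, with gene levels of 77.1 in SG-bam, against 2.66 in SC. The extension of jagn, a protein of the endoplasmic reticulum, had 0.0598% in SG-bam, against 4.24% in SC, and touches an exon of kat-60L1. Where the gene level was at least 1 in both groups and no extension was listed at 0, the largest falls of the extension level were mostly in genes whose own level was lower in SG-bam. CG31988 had an extension level of 0.0329 in SG-bam, against 42.1 in SC, and a gene level of 32.4 in SG-bam, against 3767 in SC. CG8565 had an extension level of 0.0242 in SG-bam, against 37.1 in SC, and a gene level of 2.52 in SG-bam, against 670.4 in SC. Of the 10 genes with the largest falls of the extension level under these limits, 9 had the lower gene level in SG-bam and 9 carry a CG number alone. Among all 141 genes on the SC side, 112 had the lower gene level in SG-bam and 88 carry such a number, so the counts are a description.

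X-linked genes number 13 of the 141, against 104 of all 610 called genes, and were picked out after their values were seen. Of the 13, 10 are listed for SG-bam alone, as are 49 of the 141. CG42579 had a gene level of 0.08 in SG-bam, against 1064 in SC, CG42578 0.23 in SG-bam, against 744.0 in SC, and CG15200 7.09 in SG-bam, against 5816 in SC, and all 3 have an extension listed at 0 in SG-bam. CG45488, CG45489, CG45490 and CG45491 each have a gene level of 0.22 in SG-bam, against 193.7 in SC. As these levels are equal, the genes are not read as 4 separate measurements, and they make up 4 of the 10. In all, 8 called genes in 3 sets share both gene levels, the other sets being par-1 with mei-W68 and Gld2 with SKIP.

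Gene level and extension could be separated best where the gene level was steady, within 0.32 on the log2 scale, as in 57 called genes, 48 of them with the higher share in SG-bam and 9 in SC. WASp, above, is among them, but its extension starts 4390 bases past the annotated gene. Su(fu), a negative regulator of Hedgehog signalling, had gene levels of 30.5 in SG-bam, against 35.8 in SC, and an extension level of 2.93 in SG-bam, against 0.0568 in SC. Gp93, a chaperone of the endoplasmic reticulum, had gene levels of 127.9 in SG-bam, against 138.2 in SC, and an extension level of 1.51 in SG-bam, against 0.0185 in SC. The Gp93 extension starts 2160 bases past the annotated gene, so its assignment to Gp93, as that of WASp, is uncertain. With extensions above 0 in both groups, the largest such share fold was that of CG42857, with 1.86% in SG-bam, against 0.00837% in SC. In the opposite direction Rcd5 had gene levels of 71.2 in SG-bam, against 69.5 in SC, and an extension level of 0.0185 in SG-bam, against 0.552 in SC. Papst2, a transporter of the sulfate donor PAPS, had a share of 0.0876% in SG-bam, against 1.69% in SC.

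Genes listed for bam mutants alone made up 162 of the 610 called genes, and 448 were also listed for SG-tut or SG-bgcn. The higher share was in SG-bam for 113 of the 162 (69.8%) and for 356 of the 448 (79.5%). Among the genes with the higher share in SG-bam, those listed for it alone had a median share of 11.7% in SG-bam, against 0.753% in SC, and the shared genes 17.5% in SG-bam, against 1.1% in SC. The median extension level was 1.51 in SG-bam, against 0.0939 in SC, for the genes listed for SG-bam alone, and 4.31 in SG-bam, against 0.157 in SC, for the shared genes. Median gene levels were 24.9 in SG-bam, against 11.03 in SC, for the genes of SG-bam alone, and 34.4 in SG-bam, against 19.3 in SC, for the shared genes. The genes of SG-bam alone thus had the lower extension and gene levels of these medians.

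In the authors' deposited table the median FDR on the SG-bam side was 0.00496 for the 113 genes and 2.69e-06 for the 356 shared genes. On the SC side of the authors' deposited table it was 0.000239 for the 49 genes of SG-bam alone and 0.000324 for the 92 shared genes, so the order was not the same. A gene may be missing from another mutant table because that table was also selected, so a listing for SG-bam alone does not show that the other mutants differ. That difference was not tested. Genes of SG-bam alone were less often in the table of dissected spermatogonia, 25.9% of the 162, against 41.3% of the 448 shared genes, as a description of the lists.

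**Figure D3:**
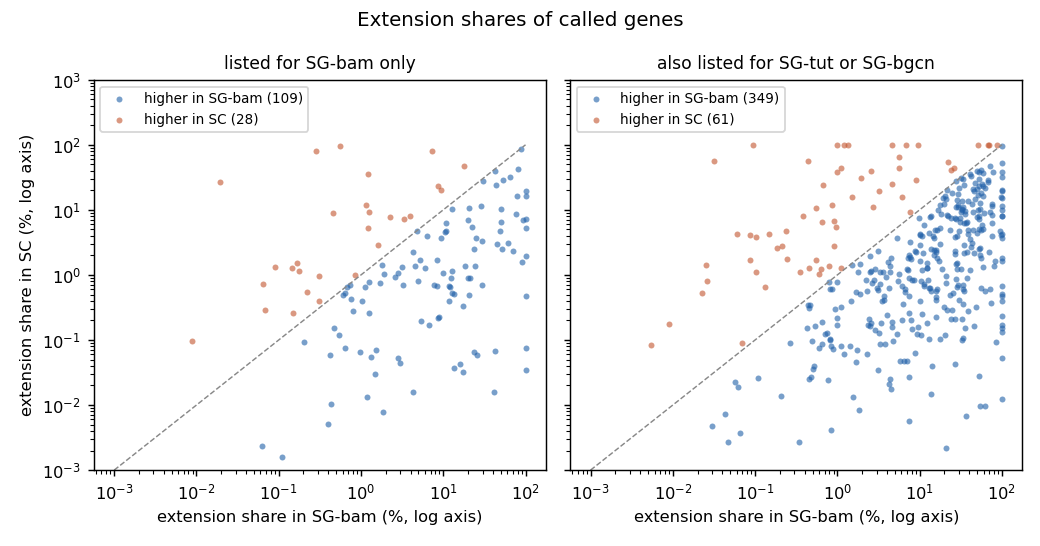
Extension share in SG-bam (horizontal log axis) and in SC (vertical log axis) for the called genes with levels above 0, split into those listed for SG-bam alone (left panel) and those also listed for SG-tut or SG-bgcn (right panel); each point is a gene and the dashed line marks equal shares. Both panels have most points on the SG-bam side, 109 against 28 in the left panel and 349 against 61 in the right panel.

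The lowest FDR of the whole comparison belonged to a gene of SG-bam alone, l(2)gl, a tumour suppressor that sets cell polarity (1.21e-146 in the authors' deposited table). Its extension level was 28.4 in SG-bam, against 0.0754 in SC, and its gene level 95.2 in SG-bam, against 10.9 in SC. The share was 29.8% in SG-bam, against 0.69% in SC. The stretch listed as its extension covers 2L:9-7438 on the minus strand, close to the tip of the assembled arm, and starts 2400 bases past the annotated end of l(2)gl. Dissected spermatogonia list the same symbol, with a share of 4.43% and a gene level of 14.2.

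Further low FDR values in genes of SG-bam alone often came with an exon of a neighbour. DNApol-alpha50, the primase subunit of DNA polymerase alpha, stood at 100% in SG-bam, against 1.97% in SC, with an extension that starts 2540 bases past the gene and touches an exon of GAPcenA. The helicase gene abs had 25.9% in SG-bam, against 0.0581% in SC, with an extension over an exon of Gel. Of the 10 such genes with the lowest FDR on each side and a gene level of at least 1 in both groups, 5 on the SG-bam side and 5 on the SC side touch an exon of another gene. Over all called genes 16.1% do. Free of such contact, besides l(2)gl and RpS3, were CrebB, the cAMP-responsive transcription factor, with 20.5% in SG-bam, against 10.6% in SC, and the nuclear receptor Hr39, with 28.6% in SG-bam, against 11.4% in SC. The Hr39 extension lies inside the annotated gene but touches none of its annotated 3′ UTR. CG34002 had 22.1% in SG-bam, against 5.55% in SC. On the SC side the lowest FDR of these 10 genes was that of CG4480, with 3.32% in SG-bam, against 7.36% in SC, and a gene level of 1.56 in SG-bam, against 223.2 in SC.

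Genes listed for all 3 mutants were 270 of the 610, with 220 (81.5%) higher in SG-bam. The 3 comparisons share the SC averages, and each lists genes selected by a difference from SC. Similar medians in the 3 mutants are thus partly set by the listing, and their values are set side by side without a measure of likeness. For the 220 genes the median gene level was 37.6 in SG-bam, 37.7 in SG-tut and 37.0 in SG-bgcn, against 16.6 in SC. Their median share was 19.4% in SG-bam, 17.1% in SG-tut and 19.0% in SG-bgcn. The SC median was 1.15% over the extensions of the SG-bam table. Of the 378 symbols shared with SG-tut the extension has identical ends in 156 and overlaps in 378. Of the 358 shared with SG-bgcn it has identical ends in 125 and overlaps in 357.

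Among these genes the lowest FDR values on the SG-bam side were those of mub and par-1. Par-1, a kinase of cell polarity, had a share of 27.7% in SG-bam, 25.4% in SG-tut and 27.8% in SG-bgcn, against 0.872% in SC. The gene level listed for par-1 was 74.3 in SG-bam, against 9.62 in SC. Both levels are also listed for mei-W68, so neither they nor the share can be assigned to par-1 alone. The 6260 bases of the par-1 extension lie inside the annotated gene and touch none of its annotated 3′ UTR. For mub the share was 29.7% in SG-tut and 30.9% in SG-bgcn beside the 31.3% in SG-bam. Stg had 46% in SG-bam, against 2.16% in SC. In the SG-tut table it had 12.8% in SG-tut, against 0.968% in SC, and the SG-bgcn comparison gives 24.9% in SG-bgcn, against 1.61% in SC, so the stretch measured differs between the tables. The share of l(1)G0320 was 79.4% in SG-bam, 12.2% in SG-tut and 24.6% in SG-bgcn, against 1.38% in SC. The release factor eRF1 had 16.4% in SG-bam and 16.1% in SG-tut, against 4.88% in SC in both tables, with an extension over an exon of CG5618. The SG-bgcn table lists another stretch of eRF1, with 35.6% in SG-bgcn, against 14.03% in SC. No replicate values are in the tables, so none of these differences between mutants can be set against replicate spread.

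**Figure D4:**
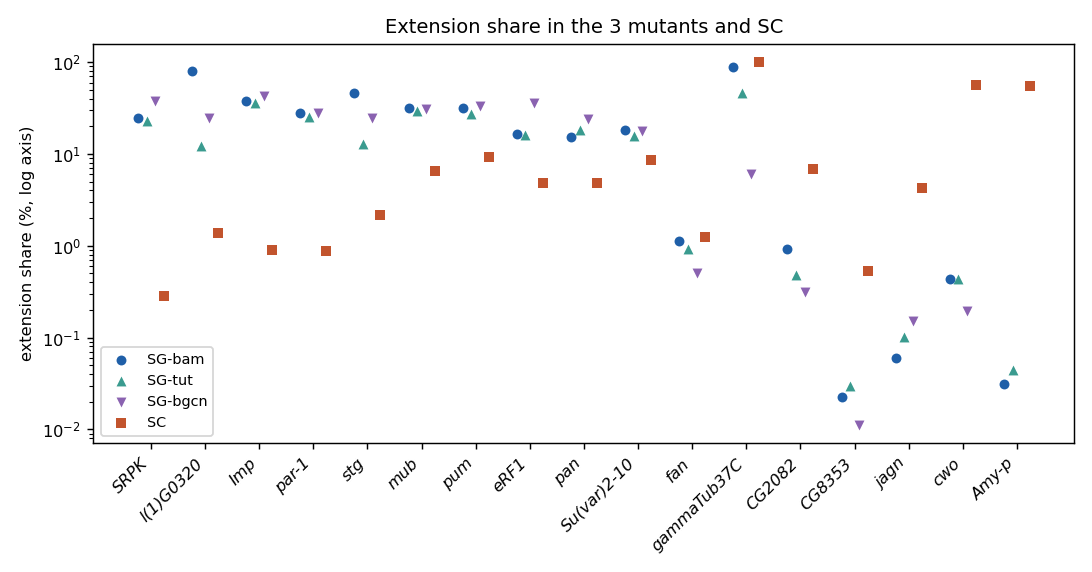
Extension share (vertical log axis) of genes listed for all 3 mutants, ordered by the share fold in SG-bam: those with the lowest FDR on each side and a gene level of at least 1 in both groups, and stg, pum, SRPK, Imp and cwo. Each symbol is a group average in SG-bam, SG-tut, SG-bgcn or SC, the SC value is that of the SG-bam table, and the SG-bgcn value of Amy-p is not drawn because its extension is listed at 0. The mutants lie above SC from SRPK to Su(var)2-10 and below SC from fan to Amy-p, closest for fan and for gammaTub37C in SG-bam. SC values differ between the tables for some genes, such as eRF1 and stg.

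On the SC side the 50 genes in all 3 mutants had a median gene level of 7.09 in SG-bam, 5.68 in SG-tut and 5.55 in SG-bgcn, against 20.6 in SC. The gene level of Amy-p was 77.1 in SG-bam, 53.9 in SG-tut and 55.3 in SG-bgcn, against 2.66 in SC. CG31988 kept a gene level of 32.4 in SG-bam, with 6.77 in SG-tut and 5.4 in SG-bgcn, against 3767 in SC. CG2082 had shares of 0.917% in SG-bam, 0.479% in SG-tut and 0.313% in SG-bgcn, against 6.8% in SC. CG8353 had 0.0228% in SG-bam, 0.0298% in SG-tut and 0.0111% in SG-bgcn, against 0.53% in SC.

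Of the called genes 227 are also in the table of dissected spermatogonia, which were prepared with the same dissection and kit as SC. For the 197 with the higher share in SG-bam, the median share was 16.04% in SG-bam and 22.3% in SG, against 0.923% in SC for the extensions of the SG-bam table and 0.97% for those of the SG table. Their median gene level was 35.9 in SG-bam and 18.4 in SG, against 18.2 in SC. Genes enter the SG table by a difference from SC, so a share in SG unlike that in SC is partly how these genes came into this set. Extensions of these genes need not have the same ends in both tables.

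The extensions of the directions differed in where they lie, as set against the Ensembl annotation. Of the 469 with the higher share in SG-bam, 161 (34.3%) lie inside the annotated gene, 132 (28.1%) cross its end and 176 (37.5%) lie downstream. Of the 141 with the higher share in SC, 9 (6.38%) lie inside, 20 (14.2%) cross and 112 (79.4%) lie downstream. Extensions higher in SG-bam had a median length of 758 bases, against 369 bases for those higher in SC, and 104 of the longer set reached 2000 bases, against 2 of the shorter. Contact with the gene's own annotated 3′ UTR was found in 56.7% of the extensions higher in SG-bam and 19.1% of those higher in SC. Of the 161 that lie inside the gene and are higher in SG-bam, 134 touch that UTR and the rest do not. Downstream extensions on the SC side mostly start at the annotated end, 81 of 112 within 100 bases of it, and on the SG-bam side 103 of 176 do.

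Position also went with the size of the share. Extensions inside the gene and higher in SG-bam had a median share of 27.1% in SG-bam, against 2.32% in SC, those that cross the end 15.5% in SG-bam, against 1.44% in SC, and those downstream 7.85% in SG-bam, against 0.364% in SC. Exons of another gene were touched by 4.35% of the extensions inside, 8.33% of those that cross and 34.1% of those downstream. Among genes of SG-bam alone 57.4% of all called extensions lie downstream, against 43.5% of those shared with another mutant. The longest extensions were those of CG41378 with 16200 bases, pan, the transcription factor of Wingless signalling, with 13470 bases, and Tm1 with 12710 bases. The share of pan was 15.4% in SG-bam, against 4.86% in SC, at gene levels of 20.03 in SG-bam and 18.6 in SC.

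**Figure D5:**
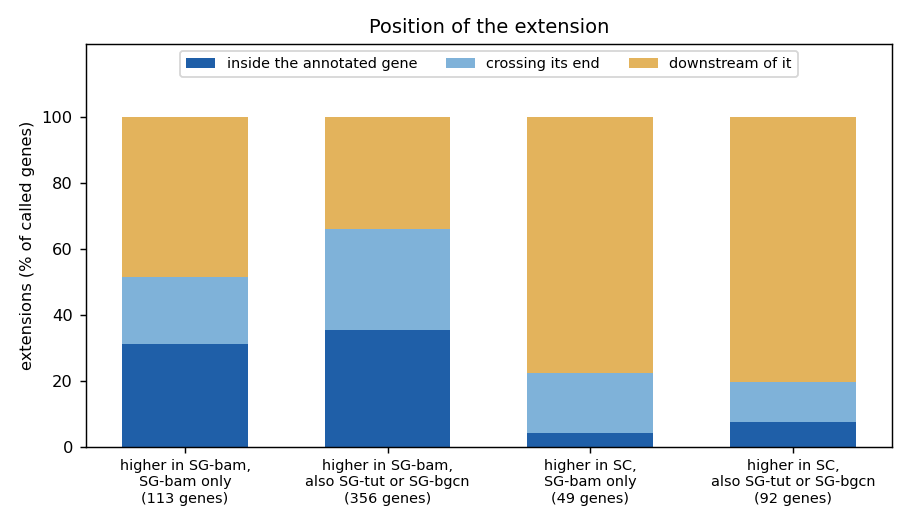
Percentage of called extensions that lie inside the annotated gene, cross its end or lie downstream of it, for genes with the higher share in SG-bam or in SC and, within each, genes listed for SG-bam alone or also for another mutant. Downstream extensions make up 48.7% and 34.0% of the bars for SG-bam and 77.6% and 80.4% of the bars for SC.

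Shares of 100% mark genes whose extension level reached or passed the gene level, 34 in SG-bam among the genes higher there and 12 in SC among the genes higher there. Of the 34, 24 extensions lie downstream and 9 touch an exon of another gene. Their median gene level was 1.49 in SG-bam, against 5.76 in SC. Examples are sd, a transcription factor of the Hippo pathway, with a gene level of 1.26 in SG-bam, against 79.1 in SC, and the kinesin gene Kif19A, with an extension level of 31.9 in SG-bam, against 0.0876 in SC, over gene levels of 1.95 in SG-bam and 1.09 in SC. Such a share says that the listed stretch had more signal than the gene it is assigned to.

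Genes on both sides of the threshold varied widely in their shares. Just inside it stand Atf3, Ca-alpha1T and rin, with FDR values of 0.05, 0.0498 and 0.0491 in the authors' deposited table. Just outside it stand cu, Gapdh1 and CG8586, with 0.0509, 0.0517 and 0.0525 in the authors' deposited table. The share of rin, an RNA-binding protein of stress granules, was 0.203% in SG-bam, against 0.0921% in SC. For Atf3 it was 18.5% in SG-bam, against 1.39% in SC, and for Ca-alpha1T 81.0% in SG-bam, against 42.7% in SC. That of Gapdh1, a glycolytic enzyme, was 0.163% in SG-bam, against 0.0256% in SC. CG8586 had nearly equal shares, 5.04% in SG-bam, against 5.003% in SC, and the extension of cu is listed at 0 in SC.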

How the data were processed

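RNA sequencing of Drosophila testis gave, for the comparison used here, 2 SG-bam and 3 SC libraries. Tools named by the authors, per the submitters' processing notes, are TopHat2 2.1.0, Trimmomatic 0.33, FastQC 0.11.3, CASAVA, DESeq2, Cuffdiff 2.2.1 and Cufflinks 2.2.1, and the build is dm6. Which tool did what, how extensions were defined and which test gave P is not given in the sources used here. Per the file headers, the deposited table holds, for each gene, the authors' average signal of gene and extension per group, the extension share as a fraction, log2 folds of SG-bam over SC, and the authors' p-value (P) and FDR. Fractions were printed as percentages.

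Calls were those with an authors' FDR up to 0.05, on the side of the higher share. No test of single genes was run, since no library values are used here. The labels do not say whether libraries came from separate flies, so P may measure technical spread only. Genes were matched between tables by symbol. Extensions were set against Ensembl release 115 (BDGP6.54, the assembly dm6), where 633 identifiers matched and 5 were matched by symbol. Contact with other genes leaves out transposable elements. The number of tests was recovered from P and FDR by Benjamini-Hochberg ranks, whole in 73.5% of rows at a relative tolerance of 1e-09. The same code came out exact in 5 of 5 draws of simulated P values. Those draws were not made from this comparison and check the code alone. No genome sequence was used.

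The members, the 24 gene lists and all rules were chosen with earlier results of these data known. Named genes are the regulators, for each list the called genes whose share moved most, at most 4 and with values above 0, the largest extension folds, the lowest FDR among genes of SG-bam alone and of all 3 mutants, genes at a steady gene level, the highest gene levels, the longest extensions and those next to the threshold. Notch, the other genes whose share barely moved, and those named beyond those 4 in a list were chosen after their values were seen. Alternatives were a stricter FDR of 0.01, levels above 0, a gene level of at least 1, no contact with another exon, other matching between tables and a share moved 2-fold. Python 3.11.15, pandas 2.3.3, numpy 2.4.6 and matplotlib 3.10.9 were used.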

Additional observations from a re-analysis of the deposited data

How the results depend on the processing

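Of 33 alternative values, 30 stayed within 1.5 times of the main value. The 141 genes with the higher share in SC came to 89 where all levels had to be above 0 and to 85 where the gene level had to be at least 1 in both groups; both leave out the genes listed at 0 or near it in SG-bam. The 162 called genes listed for SG-bam alone came to 105 at an FDR of 0.01 or less. The 469 genes with the higher share in SG-bam lay between 381 and 493 under the other settings and at 405 with the share moved at least 2-fold. The settings without genes that share both gene levels with another listed gene, and with all listed genes, were chosen after seeing the data. No paired analysis was possible because the tables give group averages, and for the same reason no library could be left out. The search for poly(A) signal letters was not run, as no genome sequence was used. Depth per library is unknown and the extension of a gene at a low level rests on little signal.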

Other observations

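Further gene groups are given here as values. Their members were picked from the table after their values were seen, so their counts per side are no result, and 76.9% of all called genes lie on the SG-bam side. Vesicle coats and adaptors had 18 called members, 15 with the higher share in SG-bam and 3 in SC. The coatomer subunit zetaCOP had a share of 10.03% in SG-bam, against 2.86% in SC, at gene levels of 284.7 in SG-bam and 413.8 in SC. Eps-15, an adaptor of endocytosis, had 98.7% in SG-bam, against 16% in SC, with an extension over an exon of GstE12, and Trs31, a subunit of the TRAPP tether, 8.6% in SG-bam, against 0.221% in SC, over an exon of CG10151. Synaptobrevin (Syb), a fusion protein of vesicles, was on the SC side, with 0.00892% in SG-bam, against 0.0975% in SC. Subunits of the vacuolar proton pump had 4 called members, and Vha100-1 had 8.03% in SG-bam, against 0.146% in SC. Vha16-3 had a gene level of 0.78 in SG-bam, against 1170.47 in SC, and an extension listed at 0 in SG-bam.

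Signalling pathway genes had 16 called members, all with the higher share in SG-bam, beside 76.9% of all called genes. The kinase Tao had 49.7% in SG-bam, against 7.85% in SC, hep, a kinase of the JNK pathway, 75.5% in SG-bam, against 11.5% in SC, and Gprk2, a receptor kinase, 76.6% in SG-bam, against 6.33% in SC. Sik3 had 36.1% in SG-bam, against 0.15% in SC, at a gene level of 13.0 in SG-bam, against 593.6 in SC. Genes of mRNA decay and repression had 11 called members, and these too lie on the side that holds 76.9% of all called genes. The deadenylase subunit PAN2 had 13.1% in SG-bam, against 0.626% in SC, the exosome subunit Rrp42 12.9% in SG-bam, against 0.521% in SC, and gw, the partner of Argonaute in silencing, 1.0% in SG-bam, against 0.173% in SC. For exu, which localises bicoid mRNA in the egg, the share was 53.5% in SG-bam, against 0.00961% in SC, at a gene level of 17.9 in SG-bam, against 1478 in SC. A further 18 chromatin and transcription genes lie on that same side of 76.9%, among them Dsp1, an HMG protein, with 27.2% in SG-bam, against 2.3% in SC, and asf1, a histone chaperone, with 4.68% in SG-bam, against 0.187% in SC. The polarity gene scrib had 15.8% in SG-bam, against 0.565% in SC, and the cell death gene hid 49.1% in SG-bam, against 4.72% in SC. The scrib extension lies inside the annotated gene but touches none of its annotated 3′ UTR.

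The folds of the extension level leave a range empty. Among the 479 listed genes with a higher extension level in SG-bam and levels above 0, 181 had folds up to 10.01 times and 298 had folds of at least 16.8 times, with none between. The other tables show such a range too, from 8.65 to 17.02 times in SG-tut, from 10.3 to 17.3 times in SG-bgcn and from 4.6 to 7.92 times in SG. Genes higher in SC did not leave it empty, with 16 of 92 in the same range in the SG-bam table, and the smallest of their log2 folds in the authors' deposited table was -2.60. Above the empty range the median share was 21.1% in SG-bam, against 0.736% in SC, and below it 8.11% in SG-bam, against 1.26% in SC. Genes listed for all 3 mutants made up 52.7% above and 35.4% below, and the calls 95.6% on both sides. The cause was not tested. As the listed rows were selected, their folds are not the distribution of all genes.

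Among called genes that are called elsewhere, cpo had the opposite direction in another table. For cpo, an RNA-binding protein, the share was 1.2% in SG-bam, against 35.6% in SC, and 14.6% in SG, against 4.93% in SC, in the table of dissected spermatogonia. The extensions of cpo in these tables do not overlap. The authors list CG17237 on opposite sides as well, but its extension is listed at 0 in SG-bam, so no direction is read from it. In the SG-bgcn table CG17237 had a share of 63.3% in SG-bgcn, against 0.0257% in SC, at a gene level of 0.9 in SG-bgcn, over a stretch that does not overlap.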
